A study of Mus musculus with 3 samples.

Results

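The cells described here are aortic leukocytes of the mouse that passed a transcript gate for type 2 conventional dendritic cells (cDC2). A cell was kept if its top hashtag count was at least 3 times the second, if at most 10% of its unique molecular identifiers (UMIs) were mitochondrial and if it held at least 2000 gene UMIs. Among the kept cells, a cDC2-gated cell had at least 100 UMIs per 10000 from the MHC class II genes H2-Aa, H2-Ab1, H2-Eb1 and Cd74, and under 10 per 10000 from the complement genes C1qa, C1qb and C1qc. It also had at least 2 UMIs of the C-type lectin Cd209a and none of Cd79a (B cells), Cd3e (T cells) or Xcr1 (type 1 conventional dendritic cells, cDC1). In all, 231 cells met these criteria, out of 5609 kept cells and 8471 barcodes. The cells were thus chosen by the levels of these gate genes, which are given below only as a description.

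The cells came from 10 aortas on a C57BL/6 background, pooled in 1 droplet capture from which an RNA library, an antibody library (75 surface antibodies) and a hashtag library were made. Hashtags 1 to 5 marked Jak2WT controls. Hashtags 6 to 10 marked mice of the myeloid genotype named Jak2V617F MyC (not the oncogene Myc), which carried a Cre-dependent heterozygous allele of the activating Jak2V617F mutation (Jak2V617F WT/Flex) and the Cre recombinase under the Lysozyme M promoter. Of these, mice 7 and 9 had an aortic aneurysm seen under the stereomicroscope, and mice 6, 8 and 10 had none and are called dilation mice. No treatment differed between the groups. Blood leukocytes had been labelled in every mouse by an injected CD45.2 antibody shortly before death, and cells with this label were kept out of the sort. Mice of both sexes were used in the study, and the age and the sex of each of these mice were not given in the sources used here. Xist, the transcript of the inactive X chromosome, was at 675 to 924 UMIs per 1000000 gene UMIs (CPM) in mice 1, 2, 6 and 7 and at 0 to 6.69 CPM in the other 6, so that each group held mice of both kinds.

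Conventional dendritic cells take up antigen in tissues and present it to T cells on MHC class II. The cDC2 subset depends on the transcription factor Irf4, carries CD11b and Sirpa on its surface and is known for priming CD4+ helper T cells, whereas cDC1 depend on Irf8 and Batf3 and cross-present antigen to CD8+ T cells. JAK2 is the kinase that passes signals from receptors for GM-CSF, interferon-gamma and erythropoietin to STAT transcription factors, and the V617F form is active without a ligand.

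In the cDC2-gated cells 23 transcripts were higher in aneurysm than in dilation mice, Ifitm1 with the lowest p-value, as described below. Promoter windows of 3 of them are shown with the letters of a STAT site marked. JAK2 acts through STAT factors, which bind DNA at known letters. Both groups carried the Jak2V617F allele, so this comparison does not set the allele against its absence. A part of STAT factors was not tested. The genes searched were those higher in aneurysm than in the mean of the other groups. Of these, Il1r2 and Plscr1 held the letters TTCNNNGAA of a STAT site, marked in capitals, in the window used. The window is the 250 bases before a RefSeq start site (GRCm38.p6, 5' to 3', strand of the gene). Ifitm1 is shown beside them because its window held none. All 3 windows lie downstream of the gene's first base in GENCODE (positions below). An earlier start is therefore annotated for each gene, and the bases before it are not shown.
Ifitm1, chr7:140967826-140968075, plus strand: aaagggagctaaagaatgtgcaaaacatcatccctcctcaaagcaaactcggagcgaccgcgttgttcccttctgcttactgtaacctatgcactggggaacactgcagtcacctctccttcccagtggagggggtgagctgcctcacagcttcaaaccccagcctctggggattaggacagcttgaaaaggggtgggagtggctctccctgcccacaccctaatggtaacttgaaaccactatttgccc
Il1r2, chr1:40085843-40086092, plus strand: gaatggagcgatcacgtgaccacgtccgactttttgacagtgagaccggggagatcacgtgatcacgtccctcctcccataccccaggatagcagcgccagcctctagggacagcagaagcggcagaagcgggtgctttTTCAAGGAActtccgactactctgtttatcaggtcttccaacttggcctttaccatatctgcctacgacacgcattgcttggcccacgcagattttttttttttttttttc
Plscr1, chr9:92249944-92250193, plus strand: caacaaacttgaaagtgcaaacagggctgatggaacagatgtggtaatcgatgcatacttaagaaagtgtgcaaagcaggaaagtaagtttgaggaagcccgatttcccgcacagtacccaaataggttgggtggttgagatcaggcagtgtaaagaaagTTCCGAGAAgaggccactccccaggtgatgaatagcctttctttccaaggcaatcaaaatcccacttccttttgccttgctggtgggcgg
The motif began 111 bases before the start site in Il1r2 and 90 bases before it in Plscr1. Searched on both strands, TTCNNNGAA was present in 2306 of 32851 RefSeq promoter windows of the same length (7.02%) and the interferon-stimulated response element in 978 (2.98%). Of the 40 genes higher in aneurysm than in the mean of the other groups, 27 had a window, and 2 of these held the first motif and 1 (Zbtb18) the second. These shares are near those of all promoters, and a match of letters is a description of the sequence.

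The gate cells were rich in RNA. A cDC2-gated cell held a median of 15804 gene UMIs (range 3105 to 47283) from 3021 genes (941 to 6011), 1617 antibody counts (160 to 8517) and 1.54% mitochondrial UMIs (0.390 to 6.63). The class II genes made up a median of 708 UMIs per 10000 (110 to 1194), Cd209a 13 UMIs per cell (2 to 90) and the C1q genes 1.05 UMIs per 10000 (0 to 9.01). The median depth per mouse lay between 11491 and 17896.5 UMIs. At the Cd209a threshold, the 19 gated cells with exactly 2 UMIs had pooled levels of 378 CPM for Mgl2 and 212 CPM for Clec10a. The 19 cells with 1 UMI that otherwise passed had 88.4 CPM for Mgl2 and 419 CPM for Clec10a, and the 109 with none had 146 and 117 CPM. At the C1q threshold, 8 gated cells had 5 to under 10 UMIs per 10000. Another 66 cells with 10 or more that otherwise passed were left out, 4 of them with 10 to under 15. These 66 were counted among the macrophages with C1q in the comparisons below.

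The label was checked against marker genes that the gate did not use. Pooled over all gated cells, the lectins Mgl2 and Clec10a stood at 798 and 508 CPM, against 12.1 and 4.82 CPM in 81 cDC1-gated cells (same filters, Xcr1 present and Cd209a absent) and 346 and 186 CPM in 2714 macrophages with C1q. Irf4 was at 112 CPM against 3.01 CPM in cDC1-gated cells and 24.6 CPM in macrophages, and Irf8 was at 40.3 CPM against 942 CPM in cDC1-gated cells. The dendritic cell genes Flt3 (78.7 CPM), Zbtb46 (27.5 CPM) and Dpp4 (105 CPM) were at 4.68, 4.30 and 2.88 CPM in macrophages. Batf3 was the exception among these, at 89.4 CPM in cDC2-gated and 129.6 CPM in cDC1-gated cells. On these genes the gated cells carried the label's markers.

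Markers of macrophages, cDC1 and B cells were lower than in those classes. The 16 resident macrophage genes, 3 of them C1q genes of the gate, summed to 565 CPM in cDC2-gated cells (most abundant Mrc1, 199 CPM) and to 22322 CPM in macrophages, and all 16 had at least 1 UMI. By mouse this sum was 531, 539, 372, 643 and 783 CPM in Jak2WT mice 1 to 5, 637, 687 and 763 CPM in dilation mice 6, 8 and 10, and 481 and 488 CPM in aneurysm mice 7 and 9. The aneurysm mice were thus at the low end of that range. The monocyte list summed to 1758 CPM against 5058 CPM in macrophages (most abundant Cd14, 471 CPM). The inflammatory macrophage list was not low, at 6006 CPM against 14176 CPM in macrophages and 2551 CPM in cDC1-gated cells, and Il1b made up 4772 CPM of it. The plasmacytoid dendritic cell list summed to 395 CPM (most abundant Bst2, 182 CPM) against 146 CPM in cDC1-gated cells and 541 CPM in macrophages. The list for type 2 innate lymphoid cells summed to 212 CPM (most abundant Il7r, 79.2 CPM) against 31.3 and 245 CPM, and the mast cell list to 50.1 CPM against 83.8 and 65.2 CPM (most abundant Kit, 30.4 CPM). No cells of these 3 types were gated for comparison. The cDC1 list summed to 473 CPM against 4225 CPM in cDC1-gated cells, with Xcr1 (by the gate), Snx22 and Gcsam at 0 and Naaa the most abundant at 196 CPM. B cell genes summed to 78.5 CPM against 8797 CPM in B cells, with Cd79a (by the gate) and Pax5 at 0, and T cell, neutrophil, vessel wall and erythroid genes to 18.4, 12.7, 15.6 and 50.4 CPM. The T cell sum was uneven, at 115 CPM in Jak2WT mouse 5 and 0 to 24.8 CPM in the other mice. Gated cells of mouse 5 also held more antibody counts per cell for CD5 (16 against 0 to 1.76), CD4 (3.58 against 0 to 2.1) and TCRbeta (1.75 against 0 to 0.25). For CD3 they did not (0.25 against 0.111 to 0.5).

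The genes with the highest ratio of their level in cDC2-gated cells to that in all other kept cells, with at least 20 CPM in the gated cells, were Cd209a (41.3-fold, a gate gene), Ccl17 (34.3-fold), Klk1 (27.1-fold, from 3 cells), the collagen receptor kinase Ddr1, Wnt11 (19.8-fold), Fxyd7 (19.4-fold), the natural killer receptor Klri1 (15.7-fold), Ccl22 (14.4-fold), Slc27a3 (13.8-fold) and Spint1 (11.9-fold). They are a description of the gate and were not tested. The levels are pooled over cells, 123 of 231 from mice 7 and 9, and some rest on few mice. Fxyd7 was at 118 CPM in mouse 9, 30.0 CPM in mouse 7 and 0 to 24.8 CPM in the others, Spint1 at 32.7 and 51.7 CPM in mice 7 and 9 and 0 to 6.69 CPM in the others, and Klk1 at 0 outside mice 6, 7 and 9. Ddr1 (26.9 to 74.4 CPM) and Wnt11 (55.1 to 331 CPM) were present in all 10 mice. Ccl17 and Ccl22, ligands of the T cell receptor CCR4, were uneven among cells. Of 1008 Ccl17 UMIs, 57.0% lay in 2 cells of mouse 7 with 381 and 194 UMIs, and 65 of the 231 cells held any. Tnip3, an inhibitor of NF-kappaB signalling, was more even, from 559 to 1602 CPM over the 10 mice. Il1b, the cytokine IL-1beta, was abundant at 4772 CPM, against 1467 CPM in macrophages and 2252 CPM in cDC1-gated cells.

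The number of gated cells per mouse was 11, 18, 3, 8 and 12 in Jak2WT mice 1 to 5, 20, 14 and 22 in dilation mice 6, 8 and 10, and 65 and 58 in aneurysm mice 7 and 9. Since the sort set the number of cells taken from each genotype, cells were compared as shares within a mouse. As a percentage of kept CD45+ cells the shares were 3.69, 4.70, 0.569, 5.71 and 1.94% in Jak2WT, 4.99, 3.51 and 2.56% in dilation and 6.73 and 5.71% in aneurysm mice. Mouse 7 was the highest, mouse 3 the lowest, and Jak2WT mouse 4 lay as high as aneurysm mouse 9. The mean share was 3.32% ± 2.08 (SD, n = 5) in Jak2WT and 4.70% ± 1.67 (SD, n = 5) in Jak2V617F mice (difference 1.38 percentage points, p = 0.286 in an exact permutation test, two-sided here and below). It was 3.69% ± 1.22 (SD, n = 3) in dilation and 6.22% ± 0.721 (SD, n = 2) in aneurysm mice, a difference of 2.53 percentage points (exact permutation test, p = 0.2, the smallest that 2 against 3 mice can give). Against all 8 mice without aneurysm the difference was 2.76 percentage points (exact permutation test, p = 0.0889). Free of the B and T cells, that is, as a share of class II+ cells without Cd79a or Cd3e, the values were 11.7, 12.4, 8.33, 11.3 and 15.6% in Jak2WT, 23.0, 19.7 and 11.6% in dilation and 19.0 and 21.9% in aneurysm mice. On this denominator 4 of the 5 Jak2V617F mice lay above every Jak2WT mouse (means 19.0% and 11.9%, difference 7.18 percentage points, exact permutation test, p = 0.0317). Aneurysm and dilation mice differed by 2.35 percentage points on it (exact permutation test, p = 1). This denominator has no C1q limit, so it also holds macrophages with C1q, whose part in the ratio was not tested. Of 2145 kept cells past the class II minimum, B and T cells included, 1054 were under that limit. With kept cells as the denominator and all 10 mice, the other gate and filter settings gave p of 0.214 to 0.413 between genotypes (exact permutation tests).

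**Figure D1:**
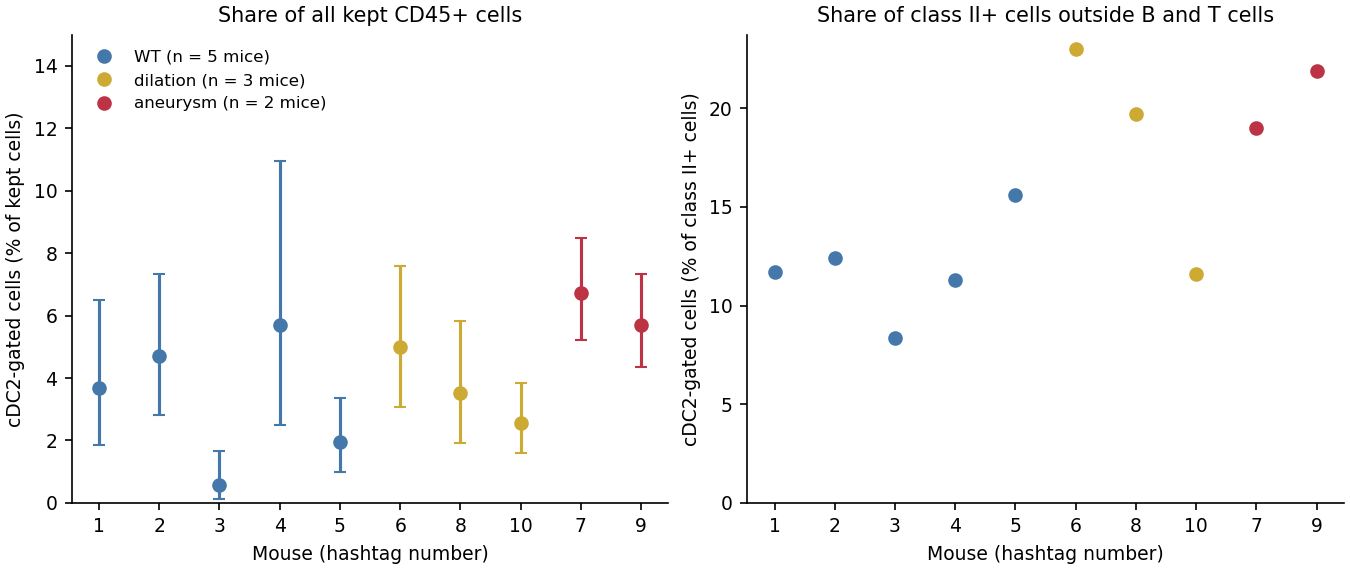
Share of cDC2-gated cells in each mouse (points, hashtag number on the x axis) as a percentage of all kept CD45+ cells (left, bars are exact 95% binomial intervals for counting error) and of class II+ cells without Cd79a or Cd3e (right, no intervals). The aneurysm mice sit at 6.73 and 5.71% on the left, within the interval of Jak2WT mouse 4 (2.50 to 10.9%), and mouse 10 is the Jak2V617F mouse that lies among the Jak2WT mice on the right.

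For transcripts, UMIs were summed over the gated cells of each mouse, and sums of fewer than 10 cells were left out of the tests. Mice 3 and 4 therefore entered no test of transcripts or antibodies, and 220 of the 231 cells were tested, in 3 Jak2WT and 5 Jak2V617F mice. Values for all 10 mice are given, in the order 1 to 5 (Jak2WT), 6, 8 and 10 (dilation), 7 and 9 (aneurysm). The summed depth ran from 191623 UMIs in mouse 5 to 1100890 in mouse 7, so the aneurysm mice were the most deeply sampled. Jak2 itself was at 94.7, 121, 149, 93.7 and 125 CPM in Jak2WT, 187, 67.3 and 119 CPM in dilation and 166 and 151 CPM in aneurysm mice. The groups overlapped, and a count of the gene's 3' ends does not tell the mutant from the normal allele. Lyz2, the lysozyme gene whose promoter drives the Cre, had a UMI in 214 of the 231 gated cells (92.6%), at 2439.7, 1218, 446, 1084 and 4853, 1798, 1853 and 3522 and 713 and 1413 CPM in the 3 groups. In mouse 1, 1 cell held 395 of its 515 Lyz2 UMIs, and the level without that cell was 696 CPM. Thinned to 2000 UMIs per cell, 63.2% of gated cells and 30.2% of B cells had an Lyz2 UMI, and recombination of the allele in these cells was not measured.

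Between Jak2V617F and Jak2WT, no transcript passed the test in either direction: 0 of 3875 were called (0%) by edgeR's quasi-likelihood test at a Benjamini-Hochberg adjusted p below 0.05, with 322 at an unadjusted p below 0.05. DESeq2 called 2, Phlda1 and Mgl2. Phlda1, a gene of the pleckstrin homology-like family, stood at 71.1, 36.4, 124, 321 and 15.7 CPM in Jak2WT, 174, 108 and 184 CPM in dilation and 151 and 139 CPM in aneurysm mice. Jak2WT mouse 4, which was not tested, was the highest of all, so the 10 mice overlapped although the tested ones did not (log2 fold change 1.82, SE 0.34, adjusted p = 0.445 in edgeR). Mgl2, the galactose lectin also called CD301b, stood at 393, 536, 1165, 535 and 313 CPM in Jak2WT, 829.8, 745 and 855 CPM in dilation and 1113 and 711 CPM in aneurysm mice (log2 fold change 0.96, SE 0.20, adjusted p = 0.445). Here too an untested Jak2WT mouse, mouse 3 with 3 cells, was the highest. Irf4 had a log2 fold change of 1.05 (unadjusted p = 0.0202), with 23.7, 87.9, 0, 73.6 and 57.4, 170.5, 67.3 and 152 and 137 and 108 CPM, and Ifngr1, the interferon-gamma receptor, one of 0.89 (unadjusted p = 0.0187).

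Lists of genes gave the same count. None of the 22 tested genes of the JAK-STAT pathway was called (median log2 fold change 0.13, against -0.00 over all 3875 genes). Its most abundant members, the kinase Pim1 and the feedback inhibitor Socs3, stood at 1318 and 321 CPM in the mean of Jak2WT and 1122 and 327 CPM in that of Jak2V617F mice (log2 fold changes -0.30 and -0.06, neither called). In the class II presentation list, leaving out its 4 gate genes, 0 of 9 were called (median 0.23), in the co-stimulation list 0 of 7 (median 0.43), and in the list of dendritic cell transcription factors 0 of 20 (median 0.14). Of 19 immediate-early and heat-shock genes, which are known to respond to the handling of tissue, 0 were called and 1 had a positive log2 fold change (median -0.43). Their summed level was 23895, 14075, 22888, 15468 and 17947 CPM in Jak2WT, 18248, 12826 and 16107 CPM in dilation and 12442 and 15352 CPM in aneurysm mice, and their part in the other values was not tested. Of the 14 tested cell cycle genes, 0 were called and 0 had a positive log2 fold change (median -1.27). Their summed level was 4169, 3534, 794, 4551 and 840.2 CPM in Jak2WT, 547, 3195 and 827 CPM in dilation and 1327 and 874 CPM in aneurysm mice. Mice 1, 2 and 4 of the controls and mouse 8 of the dilation group were high, and the groups overlapped. In cells thinned to 2000 UMIs, Mki67, a marker of dividing cells, had a UMI in 19.7% ± 12.4 (SD, n = 3) of gated cells per Jak2WT mouse and 6.06% ± 5.04 (SD, n = 5) per Jak2V617F mouse (difference -13.6 percentage points, exact permutation test, p = 0.0714, and -6.43 without thinning, p = 0.536). The share in all gated cells was 11.3% after thinning, against 0.515% in B cells of lower depth (medians 15804 and 5793 UMIs before thinning). For Ccr7, the receptor that takes mature dendritic cells to lymph nodes, the shares were 3.03% ± 5.25 (SD, n = 3) and 7.23% ± 5.61 (SD, n = 5) (difference 4.20, exact permutation test, p = 0.464).

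Between aneurysm and dilation mice, cDC2-gated cells differed in 27 of 4332 transcripts, 23 higher in aneurysm (0.531% of those tested) and 4 lower (0.0923%). DESeq2 called 36, of which 25 were higher and 11 lower. With sums of at least 20 cells (4 mice) the split was near even, 54 higher and 49 lower. Of the 23 raised genes, 8 met the minimum on low counts only through the aneurysm mice, so that their being tested at all rested on the group in which they were high: Ifitm1, Il1r2, Cd72, F11r, Havcr2, AA467197, Cd69 and Zbtb18. The same held for 187 of the 4332 genes tested, and for none of the 4 lowered genes. With no minimum on low counts, where 13614 genes were tested, the 27 genes were called as well. In cells with no UMI of the resident macrophage genes Lyve1, Pf4 or Folr2, where 4 mice were left, 18 genes were called, 11 higher and 7 lower. Of these, 8 were among the 27 (Ifitm1, Il1r2, Tbc1d4, Cd72, Klrd1, AA467197, Grasp and Fth1). In bulk sums of this kind a change in the make-up of the gated cells and a change of level within each cell cannot be told apart. Replicates here are single aortas, 2 against 3, and the count of calls was 15 without mouse 7, 7 without mouse 9, 7 without mouse 6, 13 without mouse 8 and 4 without mouse 10. Without mouse 7 or 9 a lone aneurysm mouse is left, which is then assumed to vary like the other groups.

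The lowest p-value was that of Ifitm1 (chr7:140967221-140969825 on GRCm38, plus strand), which encodes an interferon-induced membrane protein. It stood at 14.2, 9.09, 24.8, 0 and 26.1 CPM in Jak2WT, 9.65, 8.98 and 14.9 CPM in dilation and 394 and 517 CPM in aneurysm mice. Both aneurysm mice were far above each of the 8 others, which lay together (38.4-fold, log2 fold change 5.26, SE 0.33, adjusted p = 2.18e-05, edgeR). One cell held 184 of the 917 Ifitm1 UMIs. The related genes Ifitm2 and Ifitm3 were present in all groups, with Ifitm3 at 1518, 1292 and 1734 CPM in dilation and 1462 and 1915 CPM in aneurysm mice (log2 fold change 0.16, adjusted p = 0.883). Il1r2 (chr1:40074079-40125231, plus strand), the decoy receptor that binds IL-1 without signalling, stood at 28.4, 18.2, 74.4, 13.4 and 10.4, 6.43, 22.4 and 14.9 and 169 and 333 CPM in the 3 groups. The lowest aneurysm value was above the highest of the others, that of mouse 3 with 3 cells (log2 fold change 4.15, SE 0.42, adjusted p = 0.00172). Tbc1d4 (chr14:101442360-101609191, minus strand), a GTPase-activating protein for Rab proteins known from glucose transporter traffic, stood at 161, 60.6, 24.8, 13.4 and 73.1, 16.1, 44.9 and 37.3 and 409.7 and 373 CPM. Its dilation mice were low and Jak2WT mouse 1 was between them and the aneurysm mice (log2 fold change 3.61, SE 0.39, adjusted p = 0.00188). These 3 genes were called in each of the 8 fits that left out 1 mouse, 6 of which had both aneurysm mice, with the limit given above for Ifitm1 and Il1r2.

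Among other raised genes, Cd72 (chr4:43446462-43454628, minus strand), an inhibitory lectin receptor best known from B cells, stood at 4.74, 12.1, 49.6, 0 and 31.3, 9.65, 0 and 7.45 and 109 and 310.4 CPM (log2 fold change 4.98, SE 0.68, adjusted p = 0.00777). Its dilation mice held 6 UMIs in all, and its log2 fold change ran from 4.06 to 5.52 with 1 mouse left out. F11r (chr1:171437535-171464603, plus strand), the junctional adhesion molecule JAM-A, was near 0 in all mice but the aneurysm mice, at 4.74, 0, 0, 6.69 and 5.22, 0, 0 and 2.48 and 39.1 and 65.2 CPM (log2 fold change 5.30, SE 0.86, adjusted p = 0.0215). Its dilation mice held 1 UMI in all, so the sizes of both folds are loosely set. Cd72 and F11r met the minimum on low counts only through the aneurysm mice, so their being tested rested on the group in which they were high. With 1 mouse left out, Cd72 missed the threshold without mouse 6 (adjusted p = 0.0570) and without mouse 10 (0.0725), and F11r missed it without any 1 of the 5 Jak2V617F mice (0.0565 to 0.445). Plscr1 (chr9:92249750-92272278, plus strand), a phospholipid scramblase that interferon induces, was at 41.8, 44.9 and 34.8 CPM in dilation and 166 and 227 CPM in aneurysm mice (log2 fold change 2.30, SE 0.28, adjusted p = 0.00442). Klrd1, the CD94 chain of natural killer receptors, was at 109, 126 and 99.4 CPM in dilation and 337 and 403 CPM in aneurysm mice, with Jak2WT mice at 232, 194, 248, 120.5 and 115 CPM (log2 fold change 1.75, adjusted p = 0.0116). In Klrd1 the mice of all 3 groups ran on without a wide gap, unlike in Ifitm1. Plscr1 lost its call without mouse 10 (adjusted p = 0.0546), and Klrd1 without mice 6, 9 or 10 (0.0776 to 0.134).

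Other raised genes were members of the lists for class II presentation, chemokines and inflammatory macrophages, 1 or 2 in each. Of 9 tested class II presentation genes that the gate did not use, 2 were raised and none lowered (median log2 fold change 0.46), beside 0.531% raised and a median of 0.00 over all 4332 genes. The 2 were H2-Oa, a chain of the DO molecule that tunes peptide loading, and Ifi30, the lysosomal thiol reductase GILT. H2-Oa stood at 83.6, 67.3 and 49.7 CPM in dilation and 179.9 and 237 CPM in aneurysm mice, and Ifi30 at 646, 740.5 and 606 and 1115 and 1299 CPM, with the groups apart in both (log2 fold changes 1.66 and 0.87, adjusted p = 0.0151 and 0.0437). Of 12 tested chemokines, 1 was raised, Cxcl16, the membrane-bound ligand of CXCR6, at 145, 130.1 and 206 CPM in dilation and 434 and 371 CPM in aneurysm mice (log2 fold change 1.32, adjusted p = 0.0253). The inflammasome sensor Nlrp3 rose from 99.7, 85.3 and 132 CPM to 291 and 269.9 CPM (log2 fold change 1.39, adjusted p = 0.0384) and was the only one of 7 tested genes of the inflammatory macrophage list to be called. Havcr2, the inhibitory receptor TIM-3, was at 12.9, 8.98 and 12.4 CPM and 71.8 and 51.7 CPM (log2 fold change 2.39). It met the minimum on low counts only through the aneurysm mice. The ferritin heavy chain Fth1 had the smallest raised change (log2 fold change 0.78, adjusted p = 0.0462). Of the genes in this paragraph, H2-Oa lost its call without mice 8, 9 or 10 (adjusted p = 0.0531 to 0.209), and Ifi30, Cxcl16, Nlrp3, Havcr2 and Fth1 without any 1 of the 5 Jak2V617F mice (0.0546 to 0.445). The others raised were Basp1, Grasp, AA467197, Zbtb18, Tspan13, Cd69, Vasp, Gpr171, Pak1 and Snx20. Of the 8 fits that left out 1 mouse, Gpr171 lost its call in 7, and Cd69, Vasp, Pak1 and Snx20 in 6 each. Zbtb18 and Tspan13 lost it in 5 each, AA467197 in 3 and Basp1 and Grasp in 1 each.

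No gene was called in the lists for JAK-STAT (0 of 23, median 0.33), interferon-stimulated genes (0 of 9, median 0.34), NF-kappaB feedback (0 of 13, median 0.02), pattern recognition without the gate gene Cd209a (0 of 12, median 0.29) or co-stimulation (0 of 7, median 0.45). In the last, Cd86, the ligand of CD28, stood at 67.5, 117 and 104 CPM in dilation and 193 and 217 CPM in aneurysm mice and missed the threshold (log2 fold change 1.11, adjusted p = 0.0763). The growth factor receptors Kit and Flt3 missed it as well, with log2 fold changes of 2.87 and 1.37 (adjusted p = 0.0763 and 0.0842). In the mature migratory list 1 of 5 was called, Tbc1d4, beside 0.531% raised over all 4332 genes. The median log2 fold change of this list was 1.59, with 4 of 5 positive. Ccr7 had a log2 fold change of 1.59 (adjusted p = 0.412). In the list of cDC2 markers, again without Cd209a, 1 of 16 was called, Ifi30 (median 0.36, 12 of 16 positive).

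Of the 4 lowered genes, 3 have a known protein family. Spink2 (chr5:77205107-77211471, minus strand), a serine protease inhibitor, stood at 18.9, 42.4, 0, 40.2 and 20.9 CPM in Jak2WT, 61.1, 67.3 and 44.7 CPM in dilation and 6.36 and 6.75 CPM in aneurysm mice (log2 fold change -3.06, SE 0.46, adjusted p = 0.0151). The aneurysm mice were below all mice but mouse 3, which had no UMI in its 3 cells. Skint3 (chr4:112232245-112300468, plus strand), of the Skint family of immunoglobulin-like membrane proteins, stood at 133, 69.7, 124, 161 and 136, 151, 94.2 and 124 and 41.8 and 34.9 CPM, with both aneurysm mice below all 8 others (log2 fold change -1.68, SE 0.32, adjusted p = 0.0476). Ecm1 (chr3:95734147-95739569, minus strand), a secreted matrix protein, stood at 9.47, 115, 0, 20.1 and 67.8, 167, 89.8 and 152 and 13.6 and 22.5 CPM, and here Jak2WT mice 1, 3 and 4 were as low as the aneurysm mice (log2 fold change -2.94, SE 0.56, adjusted p = 0.0476). Gm14636 was the fourth, and its call too was lost without any 1 of the 5 Jak2V617F mice. With 1 mouse left out its log2 fold change ran from -1.20 to -1.09. Spink2, Skint3 and Ecm1 lost their calls without any 1 of the 5 Jak2V617F mice (adjusted p = 0.0535 to 0.445), Ecm1 also without Jak2WT mouse 5 (0.0559), and kept their direction.

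**Figure D2:**
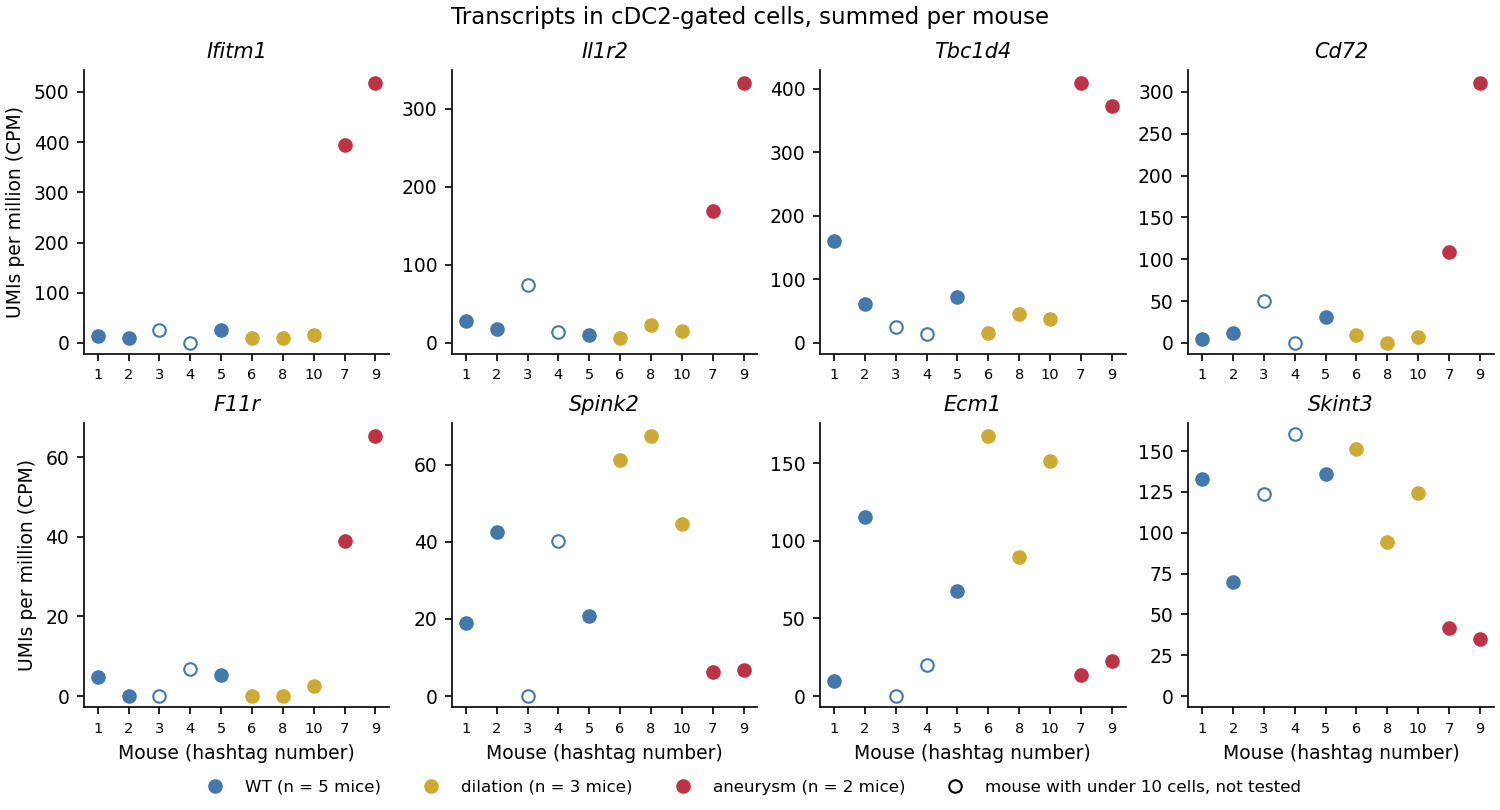
Level of 8 transcripts in the summed cDC2-gated cells of each mouse, in CPM (y axes from near 0, scaled per gene), with open circles for mice 3 and 4, whose sums of 3 and 8 cells were not tested. The points of aneurysm mice 7 and 9 stand above all others in Ifitm1, Il1r2, Tbc1d4, Cd72 and F11r and below all others in Skint3.

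The Jak2WT mice were used to place the dilation group. Against Jak2WT, aneurysm mice had 11 genes higher (0.254% of 4332) and 0 lower in the same fit, with 483 at an unadjusted p below 0.05 in either direction, and dilation mice had 0 called (0%), with 305 at an unadjusted p below 0.05. These comparisons share mice with the one above and are given beside it as values. Ifitm1 (log2 fold change 4.82), Il1r2 (3.64), Cd72 (3.70), Plscr1 (2.37), Cxcl16 (1.60) and Nlrp3 (1.75) were among the 11. Tbc1d4 was just outside, with a log2 fold change of 1.98 (adjusted p = 0.0506). Against the mean of both groups without aneurysm, 40 genes were higher (0.923%) and 2 lower (0.0462%, Spink2 and Skint3), a contrast chosen after the data were seen.

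Cells were then examined one by one for Ifitm1, Il1r2 and Tbc1d4, as a description with no test, since these genes were picked for their levels. At least 2 of the 3 had a UMI in 64 of 123 aneurysm cells (52.0%), 36 of 65 in mouse 7 and 28 of 58 in mouse 9. The same held for 3 of 56 dilation cells (5.36%) and 8 of 52 Jak2WT cells (15.4%). All 3 had a UMI in 33 aneurysm cells, 1 dilation cell and 1 Jak2WT cell. With every cell thinned to 2000 UMIs, at least 1 of the 3 was seen in 59 aneurysm cells (48.0%), 9 dilation cells (16.1%) and 3 Jak2WT cells (5.77%). The shares in other classes are given beside these, over mice whose part differed between the classes. Thinned, Ifitm1 had a UMI in 10.8% of cDC2-gated cells, 1.23% of cDC1-gated cells, 1.11% of macrophages and 0.686% of B cells. Il1r2 gave 15.6, 7.41, 1.07 and 0.858% in the same order, and Tbc1d4 20.8, 35.8, 6.19 and 0.172%. Tbc1d4 was thus seen more often in cDC1-gated than in cDC2-gated cells. In the aneurysm mice alone, Ifitm1, Il1r2 and Tbc1d4 had a thinned UMI in 18.7, 26.0 and 34.1% of 123 cDC2-gated cells, 2.86, 2.86 and 28.6% of 35 cDC1-gated cells and 1.99, 2.08 and 5.49% of 1056 macrophages. In the other 8 mice the shares were 1.85, 3.70 and 5.56% of 108 cDC2-gated cells and 0.543, 0.422 and 6.63% of 1658 macrophages. Of the 46 cDC1-gated cells of those 8 mice, 5 had Il1r2 (10.9%) and 19 had Tbc1d4 (41.3%).

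**Figure D3:**
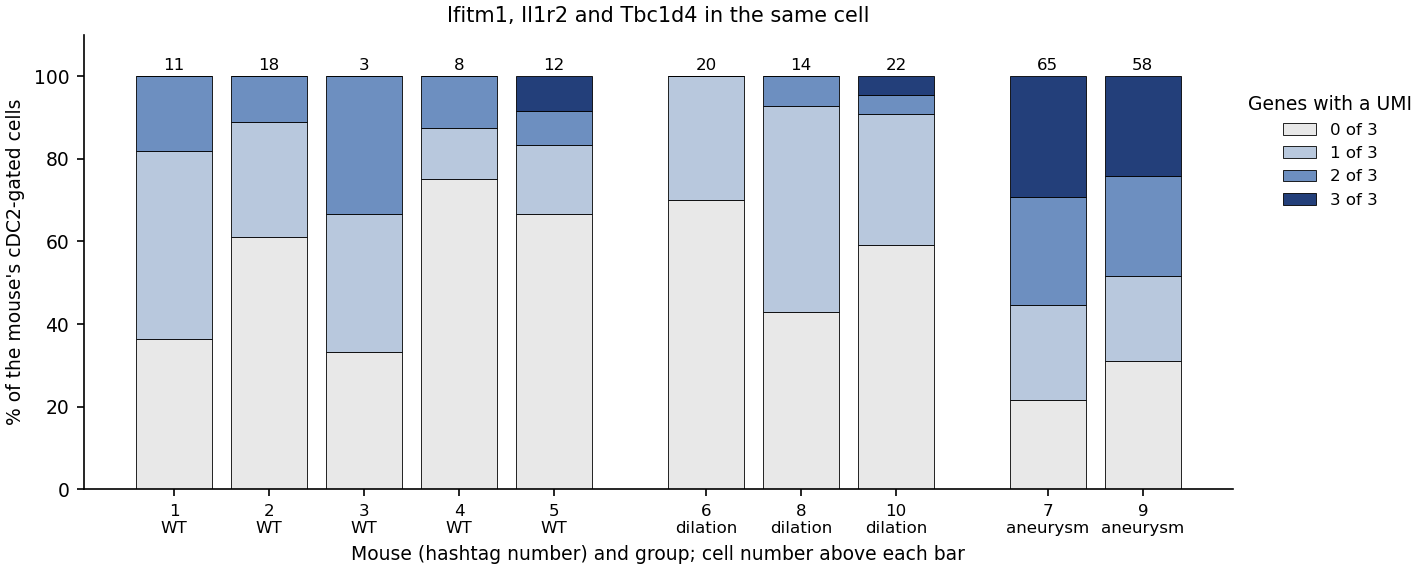
Percentage of each mouse's cDC2-gated cells (y axis) in which 0, 1, 2 or 3 of the genes Ifitm1, Il1r2 and Tbc1d4 had at least 1 UMI, with the number of cells above each bar. Cells with all 3 make up a visible part of the bars of aneurysm mice 7 and 9 and number 1 each in mice 5 and 10.

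The aneurysm cells with at least 2 of the 3 genes (64 cells) were set beside those with none (32 cells), again as a description with no test. Cells were pooled over mice 7 and 9, the 27 cells with 1 of the genes were left out, and the transcripts were picked after their values were seen. Median depth was 15542.5 and 14426.5 UMIs. Lyz2 was at 244 CPM in the former and 2480 CPM in the latter, Fn1 (fibronectin) at 26.8 and 1011 CPM, Retnla at 19.2 and 982 CPM and Cd226, an adhesion and co-stimulatory receptor, at 23.0 and 132 CPM. In both mice Lyz2 was lower in the former cells, at 246 and 1383 CPM in mouse 7 and 241 and 3432 CPM in mouse 9. Mki67 went the other way, at 119.7 CPM in the former and 15.8 CPM in the latter, from 180 and 17.0 CPM in mouse 7 and 32.8 and 14.7 CPM in mouse 9. Among Jak2WT cells, the 8 with at least 2 of the genes and the 30 with none had Lyz2 at 367 and 2806 CPM, Fn1 at 5.56 and 406 CPM and Retnla at 22.3 and 3700 CPM. The 30 include the cell of mouse 1 with 395 Lyz2 UMIs named above. In Jak2WT mice 2 to 5, Lyz2 was at 348, 261, 338 and 540 CPM in cells with at least 2 of the genes. It was at 1404, 796, 1575 and 4279 CPM in those with none. Among dilation cells, the 3 with at least 2 of the genes had Lyz2 at 3488 CPM and Fn1 at 1395 CPM, above the 3140 and 942 CPM of the 33 with none, and Retnla at 1264 against 4085 CPM. Mki67 was at 295 and 204 CPM in the 2 sets of Jak2WT cells and 26.3 and 89.4 CPM in those of dilation cells, and Cd226 at 11.1 and 120.1 CPM and at 197 and 190 CPM. Ccl17 was similar between the aneurysm cells, at 584 and 440 CPM, but rests mainly on the 2 cells named above. Summed per mouse, these genes did not pass the test between aneurysm and dilation: Lyz2 had a log2 fold change of -1.16 (SE 0.52, adjusted p = 0.448), Retnla one of -2.83 (adjusted p = 0.279) and Cd226 one of -1.54 (adjusted p = 0.169).

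Surface antibodies offered a readout that the gate had not used. In the 6 mice with at least 5 cells of both classes, 42 antibodies were tested between cDC2-gated and cDC1-gated cells with the mouse as a block. In cDC2-gated cells 8 were higher (19% of those tested) and 10 lower (23.8%) by edgeR at an adjusted p below 0.05. The higher group held the myeloid integrin CD11b, at 277 ± 57.0 counts per cell (SD, n = 6) against 24.5 ± 8.11 in cDC1-gated cells (log2 difference 3.59, SE 0.25). It also held the lectins MGL2 (16.3 ± 9.95 against 1.01 ± 0.613, log2 difference 4.01) and MGL1 (9.92 against 0.911, log2 difference 3.56). The phagocytosis checkpoint Sirpa was at 14.6 against 1.73 counts per cell (log2 difference 3.14). CD163, CD14 and CD80 were higher by log2 differences of 1.34, 1.30 and 1.04. Lower were both chains of the integrin that binds E-cadherin, CD103 (0.598 against 50.6 counts per cell, log2 difference -6.63) and ITGB7 (3.66 against 60.5, log2 difference -3.79), and CD24 (109 against 501, log2 difference -2.14). With 1 mouse left out, CD80 lost its call without mouse 2 or 7 (adjusted p = 0.0705 and 0.0848). TIM4, CD117, CD86, ICAM1, JAML and CD26 were lower by -2.76 to -0.79. Of these, CD117 lost its call without mouse 6 (0.0862), JAML without mouse 2 (0.0705) and CD26 without any 1 of 5 mice (0.0690 to 0.0989). The antibodies to class II (IAIE) and XCR1 were also called but belong to gate genes.

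Against macrophages with C1q, in the 8 mice with at least 10 cells of both classes, 16 of 68 antibodies were higher in cDC2-gated cells (23.5%) and 37 lower (54.4%). With TMM scaling in place of the total antibody count the split was 18 higher and 19 lower. Of the 53 antibodies called with the total, 35 were called with TMM and all 53 had the same sign. The antibodies named here were called in the same direction under both scalings. The peptidase CD26, a dendritic cell marker, was at 8.46 ± 1.45 counts per cell (SD, n = 8) against 0.641 ± 0.180 in macrophages (log2 difference 3.87). The integrin CD11c was at 52.9 against 7.90 (3.05) and CD226 at 29.1 against 5.48 (2.45). JAML, ITGB7, MGL2, CD62L, MGL1, SiglecF and CD24 were higher by log2 differences of 2.75 down to 1.23. SiglecF leaned on 1 cell of mouse 1, which held 506 of its counts along with 254 UMIs of Chil3. Without that cell, a step chosen after seeing the data, its mean fell from 9.35 to 3.60 counts per cell against 2.22 in macrophages, and the log2 difference was 0.85 (adjusted p = 0.00251, edgeR) in place of 1.37. The phosphatidylserine receptor TIM4 was lower, at 2.44 against 43.4 counts per cell (log2 difference -3.87), as were the Fc receptor CD64 (0.344 against 3.82, -3.53), CD163 (85.4 against 528, -2.54) and CD86 (3.31 against 30.1, -3.11). CD169, CX3CR1, F480, CD63 and CD14 were lower by -3.29 to -2.19. Isotype controls moved the same way, the hamster control at 0.107 against 0.497 counts per cell (log2 difference -2.20) and the rat IgG1 control at 0.194 against 0.422 (log2 difference -1.05, adjusted p = 0.0013, edgeR), and their part in the lower values was not tested.

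**Figure D4:**
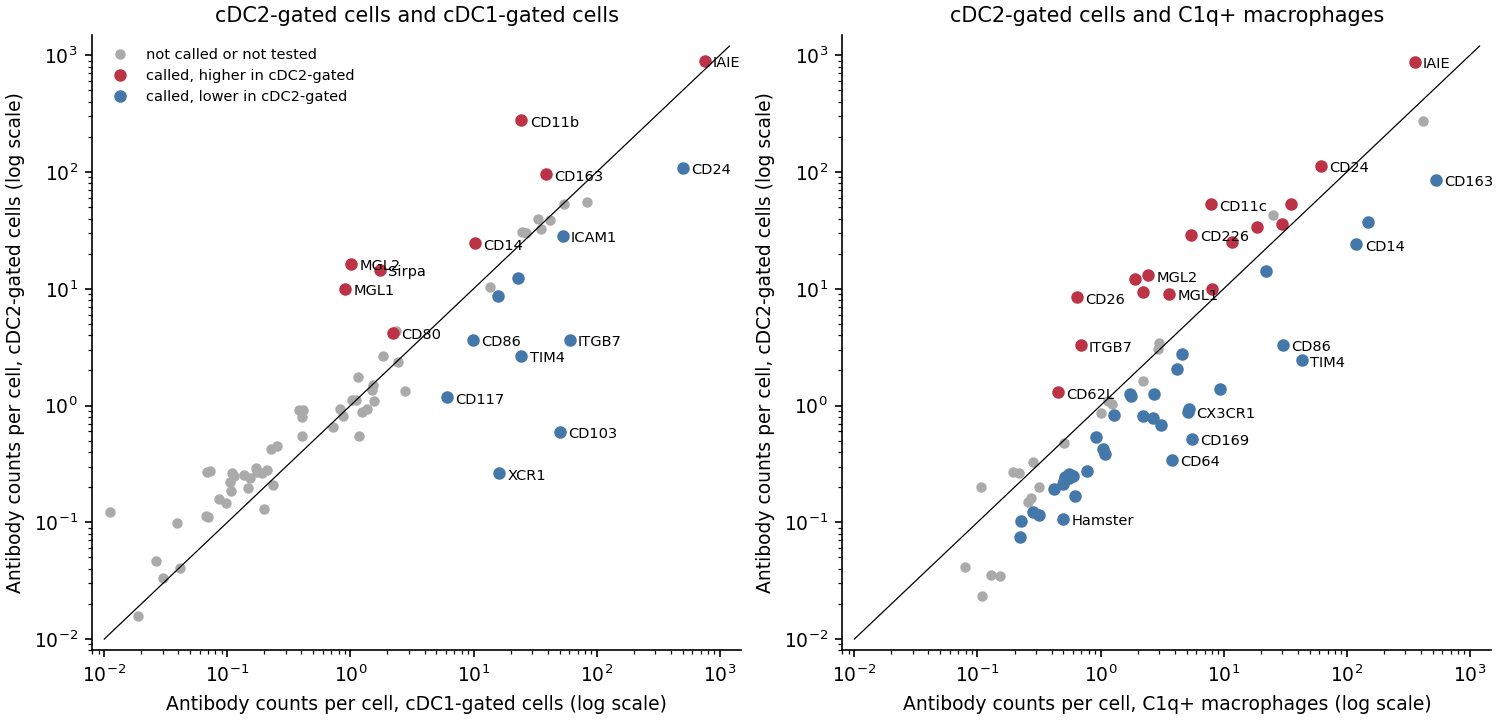
Mean antibody counts per cell (both axes log scale, 1 point per antibody, mean over mice) in cDC2-gated cells against cDC1-gated cells (left, 6 mice) and against macrophages with C1q (right, 8 mice), with equal levels on the diagonal line. CD11b, MGL1, MGL2 and Sirpa lie above the line and CD103, ITGB7 and CD24 below it on the left, and CD26, CD11c and CD226 lie above it and TIM4, CD64 and CD163 below it on the right.

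The antibodies gave no call between groups. Between Jak2V617F and Jak2WT 0 of 46 passed (0%), with 8 at an unadjusted p below 0.05. MGL2 protein, the product of Mgl2, was at 3.91, 8.22, 12.0, 16.6 and 2.42 counts per cell in Jak2WT, 16.0, 9.07 and 23.2 in dilation and 32.7 and 8.57 in aneurysm mice (log2 fold change 1.79, SE 0.54, adjusted p = 0.26 in edgeR). The tested Jak2WT mice lay below the Jak2V617F mice, and the untested mice 3 and 4 among them. Between aneurysm and dilation 0 of 48 passed (0%), with 3 at an unadjusted p below 0.05. One of these was CD226, at 36.1, 28.8 and 51.6 counts per cell in dilation and 16.6 and 9.66 in aneurysm mice, the latter lower than every other mouse (log2 fold change -1.39, SE 0.37, adjusted p = 0.114). The stem cell factor receptor CD117, the product of Kit, had a log2 fold change of 2.80 (SE 0.83, adjusted p = 0.143), with means of 0.409 and 2.43 counts per cell. The third, CD103, rests mainly on mouse 9 (log2 fold change 3.33, adjusted p = 0.0948).

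Finally, the change between aneurysm and dilation was compared with that in macrophages of the same mice, by a test of the difference itself. For genotype, 0 of 9527 transcripts differed between the classes (0%), with 525 at an unadjusted p below 0.05. For aneurysm against dilation, a contrast added after the data were seen, 9 changed more toward higher levels in cDC2-gated cells than in macrophages (0.0945%) and 12 more toward lower levels (0.126%). With 1 Jak2WT or dilation mouse left out, this split ran from 0 higher and 2 lower (without mouse 10) to 13 and 22 (without mouse 1). It was 3 and 3 without mouse 6 and 4 and 12 without mouse 8. Tbc1d4 was raised in cDC2-gated cells and level in macrophages, where it stood at 35.5, 37.0 and 25.8 CPM in dilation and 37.1 and 30.6 CPM in aneurysm mice (difference of the log2 fold changes 3.59, SE 0.51, adjusted p = 0.00602). Lgals3 (galectin-3) and Mpeg1 (perforin-2), both known from macrophages, went the other way. Lgals3 had a log2 fold change of -0.77 in cDC2-gated cells and 1.41 in macrophages (difference -2.10, SE 0.27, adjusted p = 0.00344), and Mpeg1 -0.76 and 1.57 (difference -2.23, SE 0.29, adjusted p = 0.00344). Tnip3, which marked the gated cells at a high level in all mice, was at 77.5, 90.9 and 50.7 CPM in the macrophages of dilation mice and 264 and 239 CPM in those of aneurysm mice. In cDC2-gated cells it stood at 1216, 1562 and 1155 and 1513 and 805 CPM (difference -1.99, SE 0.31, adjusted p = 0.0161). The interleukin-7 receptor Il7r showed the same order, with log2 fold changes of -0.45 and 2.43 (difference -2.89, SE 0.55, adjusted p = 0.044). With 1 mouse left out, Lgals3 and Mpeg1 were called in each of 8 fits, Tbc1d4 lost its call without mouse 10 (adjusted p = 0.0543), Tnip3 without mice 6, 9 or 10 (0.0561 to 0.144) and Il7r without mice 2, 6 or 10 (0.0629 to 0.289). For Ifitm1 and Il1r2 the differences were 3.89 (adjusted p = 0.108) and 1.86 (adjusted p = 0.374) and did not pass, so these genes were not shown to change in cDC2-gated cells alone. In macrophages they stood at 17.8, 1.21 and 1.67 and 1.97, 5.63 and 1.34 CPM in dilation and at 8.56 and 24.5 and 9.19 and 16.9 CPM in aneurysm mice. Plscr1 and Cd72 were called in both classes, with log2 fold changes of 3.28 and 3.19 in macrophages.

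**Figure D5:**
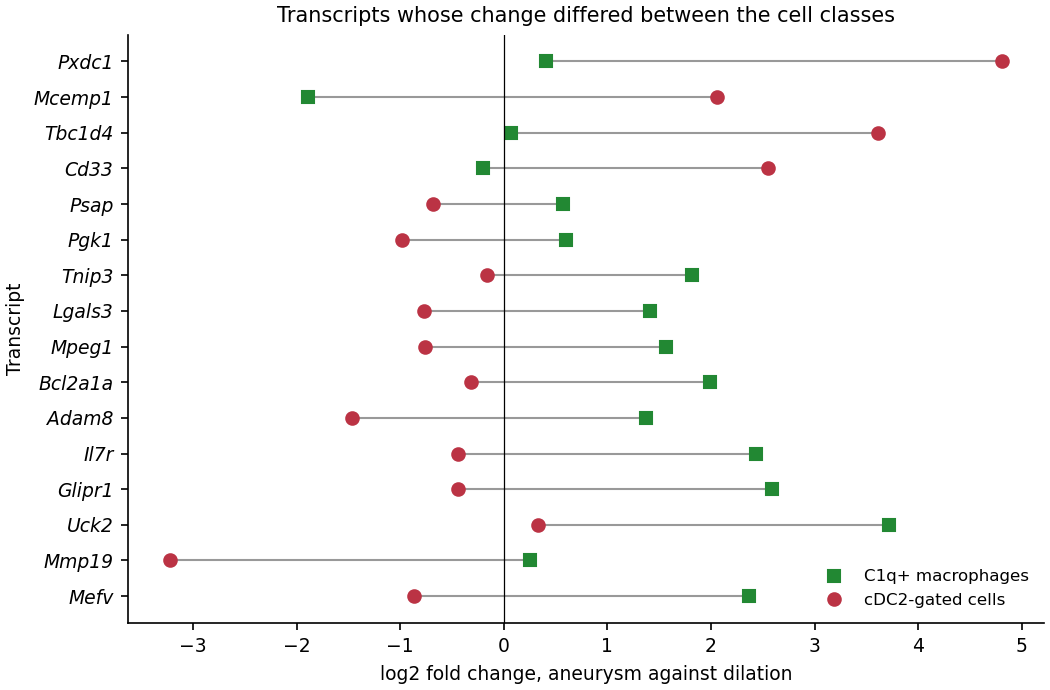
Log2 fold change of aneurysm against dilation (x axis) in cDC2-gated cells (circles) and macrophages with C1q (squares) for the 16 transcripts whose change differed between the classes and that were tested in both. Tbc1d4 lies at 3.61 in cDC2-gated cells and 0.07 in macrophages, and Lgals3 at -0.77 and 1.41.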

How the data were processed

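The authors deposited raw UMI counts per gene (32285 genes), per surface antibody (75) and per hashtag (10) for each barcode of 1 capture, made with Cell Ranger 6.0.2 per the file headers and aligned to mm10. The submitters' processing notes also name Seurat 3.0.0. Mice were assigned by hashtag as the extract protocol gives them. Doublets between mice were removed by the hashtag ratio, and no caller was run for doublets within a mouse. Counts of gated cells were summed per mouse (at least 10 cells, at least 5 against cDC1-gated cells) and tested with edgeR 4.0.16 (quasi-likelihood, TMM for transcripts, total antibody count for antibodies, Benjamini-Hochberg, threshold 0.05) in R 4.3.3. DESeq2 1.42.0 was an alternative. Shares were compared by exact permutation tests over mice (Python 3.11.15, scipy 1.17.1). P-values measure the spread between single aortas. Intervals are exact 95% binomial and cover counting error only.

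Comparisons of classes had the mouse as a block, since both classes come from the same animals. Deviations from the group means correlated between the classes of a mouse by -0.194 to 0.633 for antibodies and by 0.0304 to 0.277 for transcripts. Members and lists were chosen with earlier results of these data known. Named between aneurysm and dilation were at most 5 raised and 5 lowered genes with the largest change and no overlap of mice (5 and 3 met this, predicted genes left out), the gate genes, called members of the lists and the leading genes by ratio, and antibodies by the 10 largest differences in each direction. Other genes were named after their values were seen. Gene positions are from GENCODE on GRCm38.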

Additional observations from a re-analysis of the deposited data

Results flagged for a closer look

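In 56 groups of 5 mice, 7 values of cDC2-gated cells stood apart from the other 4 mice by Dixon's criterion at 95%. The Jak2WT mice entered only with their shares of gated cells, and all other groups were Jak2V617F mice. Many of the genes and the antibodies were picked from these same data, the leading genes from levels pooled over cells. No chance rate can therefore be set beside the 7. Ccl17 was at 728 CPM in mouse 7 against 18.0 to 183 CPM in the other Jak2V617F mice, and Ccl22 at 351 CPM in mouse 7 against 72.0 to 142 CPM. These are the CCR4 ligands, and 2 cells of mouse 7 held 71.8% of its 801 Ccl17 UMIs. Fxyd7 was at 118 CPM in mouse 9 against 0 to 30.0 CPM. Among antibodies, CD103 was at 2.34 counts per cell in mouse 9 against 0.0714 to 0.585, CX3CR1 at 1.78 in mouse 9 against 0.714 to 0.95, CD26 at 11.6 in mouse 7 against 7.36 to 8.36, and CD86 at 6 in mouse 6 against 3 to 3.78.

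For 3 of the named genes the change between aneurysm and dilation mice differed between cDC2-gated cells and macrophages with C1q by a test of the interaction (edgeR). Tbc1d4 differed by 3.59 on the log2 scale (3.61 in cDC2-gated cells and 0.07 in macrophages), Tnip3 by -1.99 (-0.16 and 1.81) and Il7r by -2.89 (-0.45 and 2.43). Tnip3 and Il7r were not called without the mouse as a block (adjusted p = 0.252 and 0.144) or without any 1 of 3 mice, and Tbc1d4 was not called without mouse 10 (0.0543).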

How the results depend on the processing

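None of the alternatives reversed the direction of a named result. The share of cDC2-gated cells among kept cells differed between genotypes by 0.689 to 1.98 percentage points and between aneurysm and dilation by 1.97 to 3.18 with 1 mouse left out, and by 7.18 between genotypes on the class II+ denominator. Between genotypes the count of transcripts was 22 with no filter on low counts and 2 with DESeq2. Between aneurysm and dilation, in place of 27 (23 higher, 4 lower), it was 216 with no filter (138 higher, 78 lower). With sums of at least 20 cells (4 mice) it was 103 (54 higher, 49 lower). It was 41 with at least 3 Cd209a UMIs (7 mice, 4128 genes tested). In cells with no Lyve1, Pf4 or Folr2 UMI (4 mice) it was 18 (11 higher, 7 lower, 8 of the 27 shared). It was 1 (Ifitm1) with cells thinned to 2000 UMIs, where 641 genes were tested, and 4 to 36 with 1 mouse left out. Without the cell of mouse 1 that held most Chil3 UMIs, an alternative chosen after seeing the data, it was 25, and 52 antibodies in place of 53 differed from macrophages. Aneurysm against the mean of the others gave 11 to 62 in place of 42 (20 without mouse 7, 11 without mouse 9). Antibodies between aneurysm and dilation gave 0 to 1 (1 without mouse 7). With 1 mouse left out, the Ccr7 difference ranged from 2.16 to 7.23 and the Mki67 difference from -18.9 to -6.82, and without thinning they were 2.49 and -6.43.

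Without the replicate block, that is with the pairing of classes within a mouse ignored, 19 antibodies in place of 18 differed from cDC1-gated cells, 54 in place of 53 from macrophages, and 0 transcripts by genotype. For aneurysm against dilation, 5 transcripts differed between the classes in place of 21 (Cd33, Lgals3, Mefv, Mpeg1 and Tbc1d4). Tnip3 and Il7r were no longer called without the block (adjusted p = 0.252 and 0.144). With 1 mouse left out, the counts with the block were 0 to 1 by genotype (1 without mouse 8) and 2 to 35 by aneurysm (2 without mouse 10, 6 without mouse 6, 35 without mouse 1, 31 without mouse 7 and 25 without mouse 9). The genotype test with sums of at least 20 cells, or without cells holding Lyve1, Pf4 or Folr2, was not run, since no Jak2WT mouse was left.

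Depth limits the groups unevenly, since the Jak2WT mice gave 41 tested cells and the aneurysm mice 123. The sum of mouse 5 held 191623 UMIs, so that 3 UMIs correspond to 15.7 CPM, and lower levels could not be compared there.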
